A study of Rattus norvegicus with 20 samples.

Results

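The genes described are those of oxidative phosphorylation in the rat ovary, and 85 of the 12452 named genes measured belong to them. They were chosen by symbol, as every rat gene starting with Ndufa, Ndufb, Ndufc, Ndufs, Ndufv, Uqcr or Atp5, or with Cox4, Cox5, Cox6, Cox7 or Cox8, together with Sdha, Sdhb, Sdhc, Sdhd and Cycs. Of 228 rat symbols that fit these names, 121 are not pseudogenes, and 86 genes had a probe on the array. The brightest probe stood for a gene with several, and a gene was kept where its probe was well above background on at least 4 arrays. The testis isoform Cox8c, well above background on 0 arrays, was the gene that did not pass, and each of the 85 others was well above background on all 20 arrays. No probe was matched to Cox7a1, Ndufa4l2 or Atp5mc3, which are named only.

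Oxidative phosphorylation is the last stage of respiration, carried out in the inner mitochondrial membrane. Complex I (NADH dehydrogenase) and complex II (succinate dehydrogenase, which is also an enzyme of the citric acid cycle) pass electrons to ubiquinone, complex III hands them to cytochrome c, and complex IV (cytochrome c oxidase) gives them to oxygen. The proton gradient built on the way drives ATP synthase. In the ovary the same membrane holds the first step of steroid synthesis, since Star brings cholesterol in and Cyp11a1, fed with electrons by Fdxr and Fdx1, cleaves its side chain. The genes measured here are the nuclear ones. Sorted by symbol, 32 fall in complex I, 4 in complex II, 8 in complex III, 16 in complex IV and 16 in ATP synthase. Complex IV includes Ndufa4, now counted there, and Cox7a2l, which takes part in joining complexes III and IV. ATP synthase includes its inhibitor Atp5if1. Cycs encodes cytochrome c. The name rule also took in 7 assembly factors of complex I, the Ndufaf genes, and 1 pseudogene, Cox6c-ps1, which are kept as classes of their own.

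RNA was taken from whole ovaries of Sprague Dawley rats killed on postnatal day 46, 1 array for each of 20 animals from independent litters. Their dams were fed a mixture of brominated flame retardants, starting before they were mated and ending when pups were weaned at 21 days, so the offspring were exposed in the womb and through milk and were no longer on the dosed diet when sampled. The mixture was 52.1% DE-71 and 0.4% DE-79 (commercial polybrominated diphenyl ethers), 44.2% BDE-209 (decabromodiphenyl ether) and 3.3% HBCD (hexabromocyclododecane). The control diet held none of it and gave 5 animals. Diets of 0.75, 250 and 750 mg/kg, which the labels equate with a daily maternal dose of 0.06, 20 or 60 mg per kg body weight, gave 4, 5 and 6 animals. Values are log2 of the processed 1-colour Agilent signal minus log2 of the array's 75th percentile, so 1 unit is a doubling relative to that percentile. The 75th percentile lay between 1158 and 1737 intensity units, 74.8% to 83.4% of spots were well above background, and the number of arrays limits the precision. The arrays lay on 3 slides, each of which held all 4 groups.

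As a class these genes varied less between ovaries than the median probe did. The median SD over the 20 arrays was 0.16 log2 for the 85 genes against 0.28 for all 23258 probes kept, and 79 of the 85 lay below the latter. Over all named genes, each by its brightest probe as here, the median SD was 0.25. Neither set was matched to the 85 genes by signal level, and the part of signal level in the smaller SD was not tested. The steadiest were Ndufa4 (SD 0.084), Ndufb5 (0.085), the ATP synthase epsilon subunit Atp5f1e (0.090), Ndufb2 (0.090) and the complex II membrane anchor Sdhc (0.091). Sdhc, for example, ran only from 1.87 to 2.20. The genes with the largest spread were Cox8b (SD 1.29) and Cox6a2 (1.18), followed far behind by Uqcrq (0.36), Sdhb (0.35) and the assembly factor Ndufaf6 (0.34). Cox8b and Cox6a2 are the isoforms of cytochrome c oxidase subunits known from heart, skeletal muscle and, for Cox8b, brown fat.

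Across dose the complexes stayed close together. At 20 mg/kg/day the median difference from 0 mg/kg/day was 0.07 log2 for the 32 complex I genes, 0.07 for complex II, 0.03 for complex III, 0.05 for complex IV and 0.12 for ATP synthase. At 0.06 mg/kg/day these medians were 0.09, 0.11, 0.09, 0.06 and 0.11, and at 60 mg/kg/day 0.05, 0.07, 0.05, 0.02 and 0.07, in the same order. The 7 assembly factors had medians of -0.01, 0.04 and -0.02 with rising dose, and Cycs, the electron carrier between complexes III and IV, lay 0.10, 0.08 and 0.13 above the controls. The control animals themselves had an SD of 0.12 in the median over all 85 genes.

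**Figure D1:**
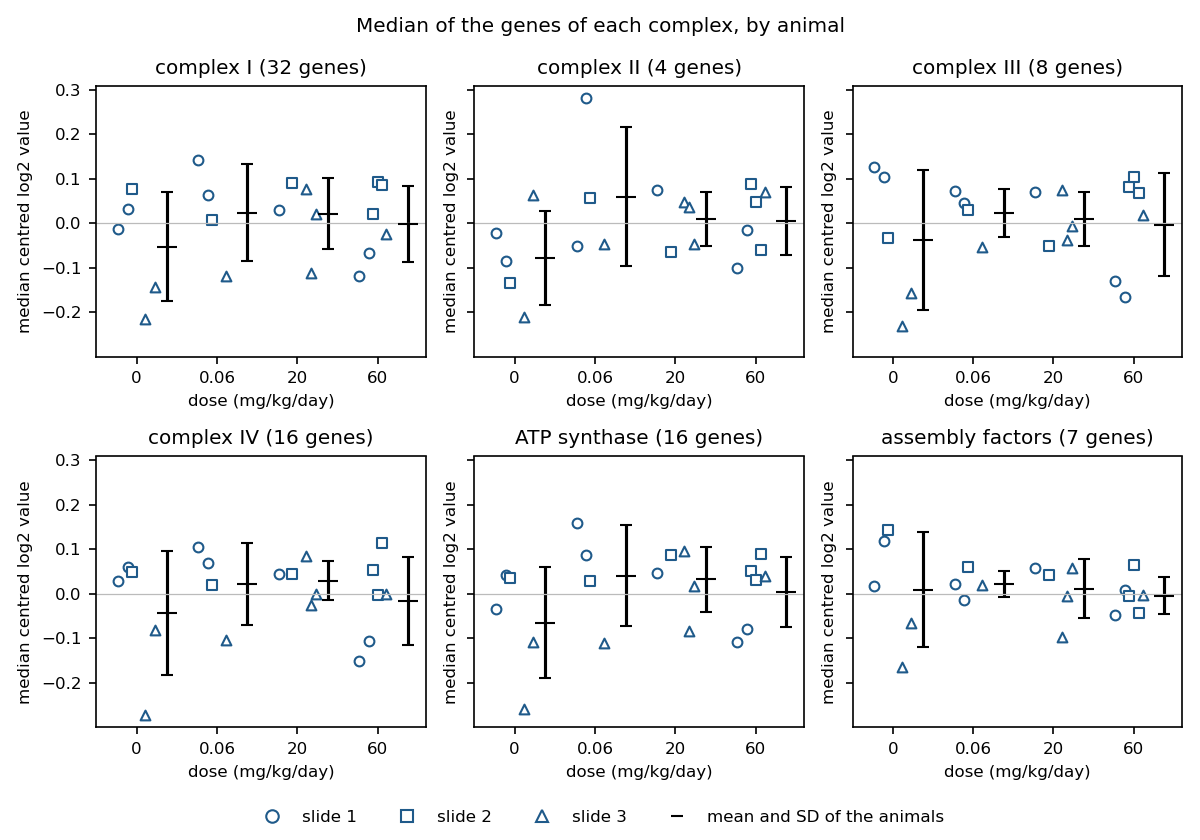
Each point is 1 animal and gives the median, over the genes of a complex, of log2 values centred on each gene's mean over the 20 arrays, plotted against maternal dose in mg/kg/day; symbols mark the 3 slides and the bars show the mean and SD of the animals of a dose. The groups overlap in every panel, and control replicate 4, the lowest triangle at 0 mg/kg/day, reaches -0.27 in complex IV and -0.26 in ATP synthase.

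In limma's fit of the 4 group means, with Benjamini-Hochberg adjustment over all 23258 probes, 0 of the 85 genes were called at an adjusted p under 0.05 at 0.06, 20 or 60 mg/kg/day, against 0.0% of all probes in each comparison. The trend over dose order and the joint test of the 3 doses called 0 of 85 as well, also beside 0.0% of probes. At an unadjusted p under 0.05 there were 0, 3 and 1 of the genes at the 3 doses, and 716, 1058 and 1450 of the probes. The trend gave 1 gene and 1333 probes at that level, and the joint test gave 0 genes and 732 probes. The lowest adjusted p of any of the genes was 1.00, 0.93 and 0.78 at the 3 doses in that limma fit.

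Most of the small differences had the same sign. The mean of 72 of the 85 genes (84.7%) was above the control mean at 0.06 mg/kg/day, against 43.7% of all probes. At 20 mg/kg/day it was 72 (84.7%) against 57.9%, and at 60 mg/kg/day 64 (75.3%) against 39.8%. The 3 comparisons share the 5 control animals, so these counts are not separate observations. The genes share the same arrays and vary together, so their signs are not separate observations either. The median difference of the 85 genes was 0.08, 0.07 and 0.05, beside -0.03, 0.03 and -0.04 for all probes. With quantile normalization the counts were 69, 57 and 66, with centring on each array's median 79, 61 and 77, and with the steroidogenic score of Star, Cyp11a1, Hsd3b1, Hsd3b2 and Scarb1 as a covariate 47, 71 and 50. Without control replicate 4 the counts were 60, 55 and 41 of 85 and the medians 0.04, 0.03 and -0.00.

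Over the 85 genes, the median centred value was 0.01, 0.05, 0.04, -0.23 and -0.09 in control replicates 1 to 5. It was 0.10, 0.08, 0.03 and -0.09 in replicates 1, 2, 3 and 5 at 0.06 mg/kg/day. It was 0.05, 0.05, 0.08, -0.07 and 0.01 in the 5 animals at 20 mg/kg/day, and -0.12, -0.08, 0.04, 0.05, 0.07 and 0.03 in the 6 at 60 mg/kg/day. Control replicate 4 was the lowest of all 20, its array had the largest share of spots well above background (83.4%), and its list of oviduct epithelium markers was the highest of the 20 at -3.51. That list was nearly as high in control replicate 2 (-3.60) and in replicate 5 at 20 mg/kg/day (-3.56), whose medians were 0.05 and 0.01. The part of the spot share or of these markers in the low values of control replicate 4 was not tested.

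The slide also entered these medians. With slide as a term, 70, 73 and 49 of the 85 genes lay above the controls at the 3 doses, and the medians were 0.07, 0.08 and 0.01. Within slide 1 the median difference of the genes was 0.06, 0.02 and -0.13 with rising dose, within slide 2 it was -0.01, 0.02 and 0.02, and within slide 3 it was 0.07, 0.17 and 0.19. Slide 3 is the slide of control replicates 4 and 5. The sign at 60 mg/kg/day thus differed between slides 1 and 3. Slide 1 had 1 animal at 20 mg/kg/day, and slide 3 had 1 at 0.06 and 1 at 60. Slide 2 had 1 control, 1 animal at 0.06 and 1 at 20. Differences that involve these rest on single animals.

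**Figure D2:**
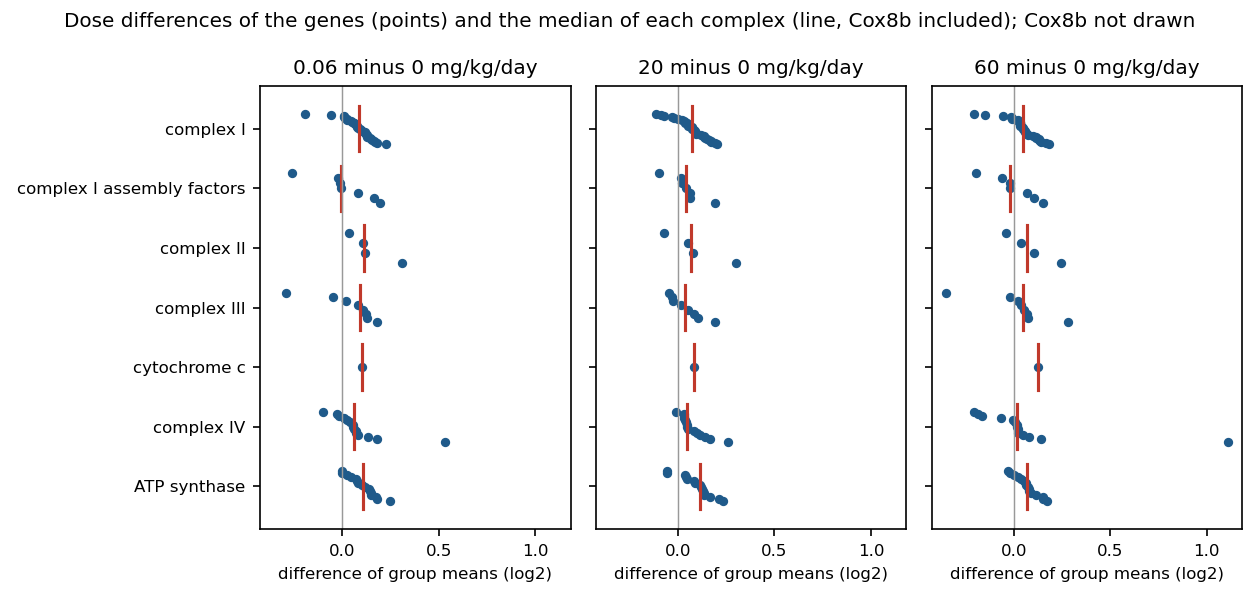
Each point is 1 gene and gives the difference of its group mean from the mean at 0 mg/kg/day (log2, horizontal axis), by complex (vertical axis), in a panel for each dose; the red line is the median of the complex. Counting Cox8b (1.17, 1.95 and 1.36) and the pseudogene, which are not drawn, 72, 72 and 64 of the 85 differences are above 0, and Cox6a2 at 1.11 is the farthest point drawn.

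The arrays bounded the size of a change in most of the genes. The 95% confidence interval of the difference from the controls lay within a 1.5-fold change either way for 79, 81 and 80 of the 85 genes at the 3 doses (92.9%, 95.3% and 94.1%), against 58.4%, 59.0% and 60.2% of all probes. The median standard error was 0.11, 0.11 and 0.10 log2 for the genes and 0.18, 0.17 and 0.16 for all probes. The probes were not matched to the genes by signal level here either. The exceptions at 20 mg/kg/day were Atp5mc1, Sdhb, Cox6a2 and Cox8b, and at the other doses Ndufaf6 and Uqcrq also reached beyond it. In whole-ovary RNA, fewer cells of a type and less RNA per cell cannot be told apart.

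Among the complex I genes, Ndufa6, an accessory subunit of the matrix arm, had the smallest p at 60 mg/kg/day. It measured 4.01, 4.16, 4.15, 3.91 and 3.95 in the 5 controls, and its lowest, median and highest values at 60 mg/kg/day were 4.08, 4.20 and 4.33. All 6 exposed animals lay above the control mean and 4 above every control. The difference was 0.17 log2 (SE 0.07, unadjusted p = 0.037, adjusted p = 0.78 in limma's fit). At 0.06 and 20 mg/kg/day it was 0.07 and 0.05.

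Ndufs4, a subunit known from Leigh syndrome when lost, had one of the smallest p values at 20 mg/kg/day. It was 2.80, 2.82, 2.70, 2.53 and 2.91 in the controls and 2.86, 2.93, 3.19, 2.88 and 2.92 at 20 mg/kg/day. The groups overlapped, and replicate 3 was the highest animal. The difference was 0.20 log2 (SE 0.09, unadjusted p = 0.037, adjusted p = 0.93 in limma's fit), and its second probe lay on the other side of 0. Ndufv2, which carries an iron-sulfur cluster of the NADH-oxidising arm, was among the 5 genes of smallest p at every dose, with differences of 0.14, 0.16 and 0.13 log2 and unadjusted limma p values of 0.096, 0.054 and 0.091.

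Ndufv1, the complex I subunit that binds NADH, differed by 0.01, -0.02 and -0.01 over the doses. Ndufab1, the mitochondrial acyl carrier protein that also sits in complex I, was the gene of complex I with the lowest difference at each dose (-0.19, -0.11 and -0.21). Its controls were 3.62, 2.93, 2.60, 2.57 and 2.58, and control replicate 1 was the highest of the 20 animals.

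Of the assembly factors, Ndufaf3 had one of the 5 smallest p values at 0.06 and at 20 mg/kg/day. It was 0.91, 1.18, 1.21, 1.02 and 1.15 in the controls and 1.36, 1.16, 1.43, 1.15 and 1.33 at 20 mg/kg/day. The groups overlapped, with a difference of 0.19 log2 (SE 0.09, unadjusted p = 0.044, adjusted p = 0.93 in limma's fit). Ndufaf6 was the lowest of the assembly factors at each dose, at -0.26, -0.10 and -0.19, with an SD over the 20 arrays larger than any of these. Ndufaf1, Ndufaf4, Ndufaf5 and Ndufaf7 differed by -0.06 to 0.10 over the 3 doses, and Ndufaf8 by 0.20, 0.01 and -0.02.

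In complex III the core proteins Uqcrc1 and Uqcrc2 and the Rieske iron-sulfur protein Uqcrfs1 lay close to the controls at every dose. Uqcrc1 differed by 0.18, 0.08 and 0.07, Uqcrc2 by -0.05, -0.05 and 0.02, and Uqcrfs1 by 0.08, -0.03 and 0.07. Uqcrb, the ubiquinone-binding accessory subunit, was 4.81, 4.99, 4.90, 4.70 and 4.39 in the controls and had a lowest, median and highest value of 4.73, 5.05 and 5.35 at 60 mg/kg/day. The difference there was 0.28 log2 (SE 0.14, unadjusted p = 0.063, adjusted p = 0.79 in limma's fit), with 5 of 6 animals above the control mean. Uqcrq lay below the controls, at -0.29, -0.03 and -0.35, and its values followed the slides, with means of -1.68, -1.82 and -1.18 on slides 1, 2 and 3.

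In ATP synthase the catalytic F1 subunits Atp5f1a and Atp5f1b differed by 0.02, 0.04 and 0.02 and by -0.00, 0.04 and -0.03 over the doses. Atp5pb and Atp5po, of the peripheral stalk, were among the genes of smallest p, Atp5pb with 0.17, 0.17 and 0.15 log2 and Atp5po with 0.18, 0.21 and 0.08. Their unadjusted limma p values ran from 0.072 to 0.47, so neither passed. Of the genes for the membrane ring, Atp5mc1 differed by 0.24, 0.24 and 0.17 and Atp5mc2 by 0.10, 0.13 and 0.09. Atp5if1, the inhibitor that stops ATP synthase from running backwards, differed by 0.15, -0.06 and -0.02.

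Complex IV holds the isoform pairs, in which a ubiquitous subunit has a partner limited to some tissues. The 250 bases before the RefSeq start of the Cox8 pair and of Cox6a2 are shown because the members of a pair differed so much in their spread between ovaries. Coordinates are those of the rat assembly GRCr8, and capitals mark matches, on either strand, to the GABPA motif CCGGAAGT or the MEF2 motif.
Cox8a (chr1:213833624-213833873, minus strand): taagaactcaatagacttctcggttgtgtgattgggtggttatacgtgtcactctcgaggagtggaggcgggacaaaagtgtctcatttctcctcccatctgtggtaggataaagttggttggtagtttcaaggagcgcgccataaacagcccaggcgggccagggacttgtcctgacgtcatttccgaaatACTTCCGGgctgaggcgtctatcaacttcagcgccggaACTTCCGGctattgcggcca
Cox8b (chr1:205408274-205408523, minus strand): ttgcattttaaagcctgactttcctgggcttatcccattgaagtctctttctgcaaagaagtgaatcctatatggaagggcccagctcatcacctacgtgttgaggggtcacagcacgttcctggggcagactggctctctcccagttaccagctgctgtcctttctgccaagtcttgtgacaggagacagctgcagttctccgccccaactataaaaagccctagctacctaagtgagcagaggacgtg
Cox6a2 (chr1:192219717-192219966, minus strand): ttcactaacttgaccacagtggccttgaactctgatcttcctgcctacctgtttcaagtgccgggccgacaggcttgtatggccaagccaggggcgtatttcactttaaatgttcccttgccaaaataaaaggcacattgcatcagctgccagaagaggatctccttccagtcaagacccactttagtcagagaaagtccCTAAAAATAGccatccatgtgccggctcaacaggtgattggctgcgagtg

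The Cox8a window holds 2 GABPA matches, that of Cox8b none to either motif, and that of Cox6a2 1 MEF2 match, CTAAAAATAG, 50 to 41 bases before the start. RefSeq promoters were found for 74 of the 85 genes (not for Cox6a1, Cox6c or Uqcrb, among others). The GABPA motif was present in 8 of the 74 (10.8%) and in 3.29% of all 27457 promoters of the same length, and the NRF1 motif in 12 (16.2%) and 4.17%. MEF2 matches were in 2 (2.70%) and 3.43%, the YY1 letters AAGATGGCG in 1 (1.35%) and 0.736%, the estrogen-related receptor letters CAAGGTCA, which NR5A1 can also bind, in 1 (1.35%) and 1.30%, and the Sp1 letters GGGCGG in 26 (35.1%) and 32.4%. The median GC content of these windows was 56.2% in the 74 genes and 52.0% in all. These are counts of letters on both strands, not of bound sites.

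Cox8b was the gene with the largest dose difference. It was -4.72, -4.05, -1.85, -5.21 and -4.53 in control replicates 1 to 5. It was -2.10, -4.43, -1.31 and -3.76 in replicates 1, 2, 3 and 5 at 0.06 mg/kg/day, and -2.25, -1.07, -2.07, -3.64 and -1.59 at 20 mg/kg/day. In the highest dose group the lowest, median and highest values were -3.91, -2.56 and -1.43. Of the 5 controls, 4 lay at or below -4.05 and replicate 3 lay with the exposed animals, so the groups overlapped at each dose.

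The difference from the controls was 1.95 log2 at 20 mg/kg/day, or 3.85-fold (SE 0.69, unadjusted p = 0.011, adjusted p = 0.93 in limma's fit). It was 1.17 at 0.06 mg/kg/day (unadjusted p = 0.13) and 1.36 at 60 mg/kg/day (unadjusted p = 0.053, adjusted p = 0.78, limma). None of the 3 passed the adjustment. The 95% interval at 20 mg/kg/day ran from 0.50 to 3.39 log2. Without control replicate 3 the difference at 20 mg/kg/day was 2.50 (adjusted p = 0.46). Within slides it was 2.13, 0.78 and 2.44 at 20 mg/kg/day, and 1.71, -0.89 and 2.19 at 60 mg/kg/day. Slide 2 had 1 control, replicate 3, and 1 animal at 20 mg/kg/day. Slide 1 had 1 animal at 20 mg/kg/day and slide 3 had 1 at 60.

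Its partner Cox8a did not share the spread. It was 5.21, 5.23, 5.13, 4.75 and 5.00 in the controls and 5.19, 5.04, 5.17, 5.13 and 4.97 at 20 mg/kg/day, a difference of 0.03 log2. After removal of dose group and slide the pair correlated at r = -0.13 over the 20 animals. Cox6a2, the muscle isoform of subunit VIa, was -4.93, -4.07, -0.72, -3.10 and -2.87 in the controls and -2.49, -1.23, -4.59, -2.90 and -3.18 at 20 mg/kg/day, with -2.88, -2.13 and -0.71 as the lowest, median and highest at 60 mg/kg/day. The difference was 0.53, 0.26 and 1.11 log2 over the doses, with a standard error of 0.71 at 20 mg/kg/day, and that for Cox6a1 was 0.07, 0.04 and 0.01.

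**Figure D3:**
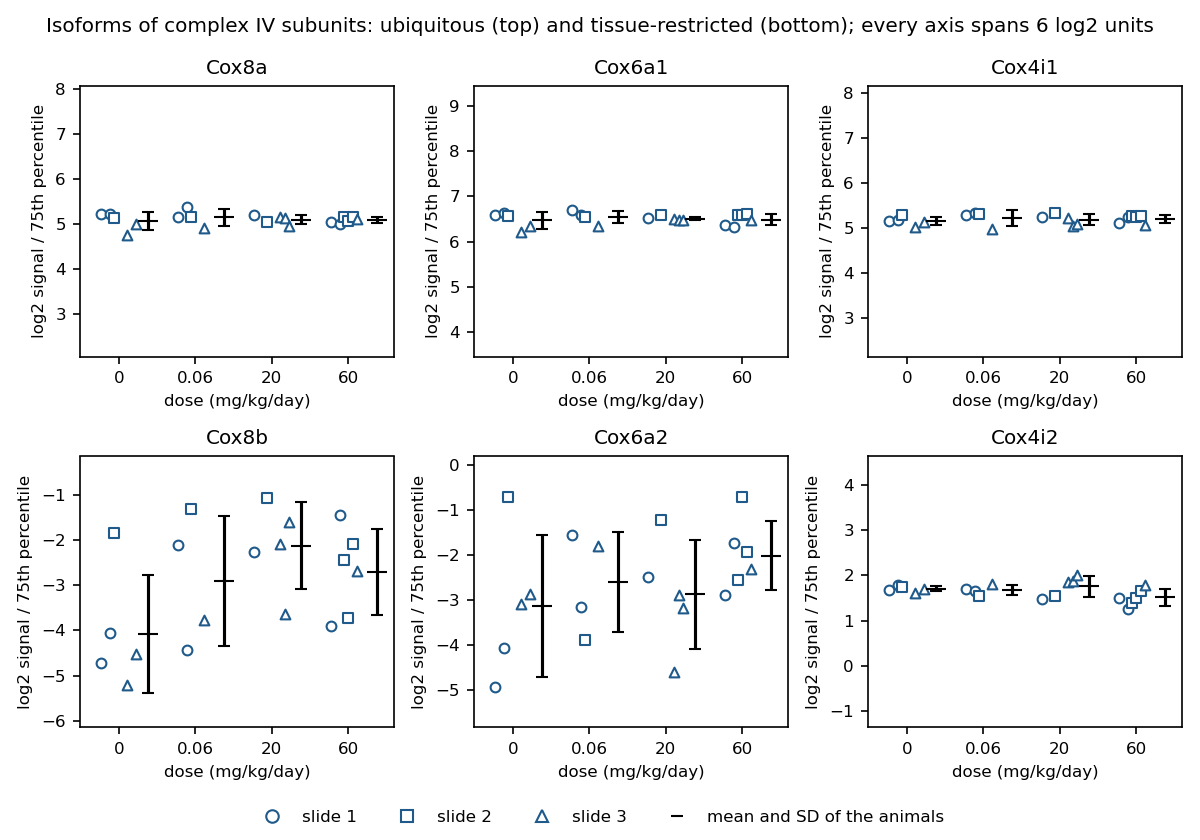
Log2 signal relative to the array's 75th percentile (vertical axis, 6 log2 units in every panel) against maternal dose in mg/kg/day, with 1 point per animal, symbols for the 3 slides and bars for mean and SD, for the ubiquitous isoforms Cox8a, Cox6a1 and Cox4i1 above and Cox8b, Cox6a2 and Cox4i2 below. Cox8b and Cox6a2 spread over several log2 units between animals of all groups while the other panels form tight bands.

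Cox8b and Cox6a2 were both high in control replicate 3 and in replicate 2 at 20 mg/kg/day, but over the 20 animals r between them was 0.14 after dose group and slide. The 5 measured striated muscle markers had group medians between -2.54 and -2.28 and the 2 brown fat markers between -2.92 and -2.71, and the brown fat gene Ucp1 was well above background on 7 arrays. The striated muscle list ranged from -2.52 to -2.25 in the controls and from -2.40 to -2.02 at 20 mg/kg/day. The genes of that list did not move as one. In control replicate 3 and in replicates 2 and 5 at 20 mg/kg/day, where Cox8b was -1.85, -1.07 and -1.59, Ckm, the muscle creatine kinase, was -4.82, -5.03 and -4.84, within -5.44 to -1.78 over the 20 animals. Tnnt2, the cardiac troponin T, was 1.21, 1.73 and 1.31 in those 3, and all 5 animals at 20 mg/kg/day (1.31 to 1.73) lay above every control (0.77 to 1.21). It was 1.28, 1.09, 1.32 and 0.32 at 0.06 mg/kg/day, and 1.57, 1.97, 1.67, 1.57, 1.45 and 1.17 at 60 mg/kg/day. How many of all probes separate from the controls in this way was not counted. Acta1, the skeletal muscle actin, was -2.65, -2.73 and -1.96 in those 3 ovaries. There Mb was -1.12, -1.23 and -1.02, and Tnnt3 was -5.18, -4.71 and -5.39. The part of these markers in the values of Cox8b was not tested.

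Those 3 ovaries belong to 5 in which Cyp17a1, which makes androgens in theca cells, was between -3.52 and -2.62, while it was between 1.71 and 3.86 in the 15 others. The other pair are replicate 1 of the lowest dose and replicate 5 of the highest, with Cox8b at -2.10 and -2.08. In the 15 others Cox8b ran from -5.21 to -1.31. The list of 6 smooth muscle markers was 0.96, 1.05, 0.97, 1.00 and 0.65 in these 5 ovaries, in order of dose, which were the highest values of their dose groups. The fatty acid binding protein Fabp4, an adipocyte marker also known from endothelium, was -0.18, 0.02, 0.66, -0.11 and 0.81, again the highest of each group, while Adipoq, the adipocyte hormone adiponectin, was -2.02, 0.17, -0.41, -3.90 and -1.67. Low-Cyp17a1 ovaries occur at each dose (1, 1, 2 and 1 animals), they were not compared as a group, and the part of these ovaries and markers in the dose differences of Cox8b was not tested.

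The dose differences of the other isoforms were smaller. Cox4i2, the oxygen-responsive partner of Cox4i1, differed by -0.03, 0.05 and -0.19 log2 over the doses and Cox4i1 by 0.07, 0.03 and 0.05. Cox7a2 differed by 0.06, 0.08 and 0.02 and Cox7a2l, which takes part in joining complexes III and IV, by -0.02, -0.01 and 0.02. Cox6b1 differed by 0.18, 0.16 and 0.14, and Cox6b2, known from testis, by 0.01, 0.12 and -0.21. Cox6b2 also had the smallest adjusted p for slide among the 85 genes (2.7e-05 in limma's test), with means of 2.07, 2.14 and 2.59 on slides 1, 2 and 3. With slide left in, Cox6b1 and Cox6b2 correlated at r = -0.36 after dose group, and with slide removed at r = 0.89.

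Cox7b, a small structural subunit, was the 1 gene of the 85 in which a dose group did not overlap the controls. It is named here because of that pattern. At that dose, 20 mg/kg/day, 0.0% of probes were called, which is a different measure. It was 3.05, 3.03, 3.05, 2.69 and 2.94 in the controls and 3.12, 3.07, 3.12, 3.06 and 3.09 at 20 mg/kg/day, a difference of 0.14 log2 (unadjusted p = 0.11 in limma's fit). The highest control and the lowest exposed animal were 3.053 and 3.055. How many of all probes separate in this way was not counted, so the 1 of 85 has no background to be read against.

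Steroidogenic activity of the ovaries was followed with a score, the mean over Star, Cyp11a1, Hsd3b1, Hsd3b2 and Scarb1 of log2 values centred over the 20 arrays. Star carries cholesterol into mitochondria, Cyp11a1 and the Hsd3b enzymes make progesterone, and Scarb1 takes up lipoprotein cholesterol. The genes were not scaled to a common spread, so Hsd3b2, which ran from 0.26 to 3.81, weighs most in the score. Star ran from 4.38 to 5.71, Scarb1 from 5.14 to 6.24, Cyp11a1 from 6.65 to 7.66 and Hsd3b1 from 7.15 to 7.64. The score ran from -0.42 to 0.51 between animals, and each dose group had animals on both sides of 0 except 0.06 mg/kg/day, where the 4 animals lay between 0.12 and 0.48. In a limma fit with dose group and slide as terms, 0 of the 85 genes had a called slope on the score, beside 0.0% of all probes, and 6 genes and 2005 probes had an unadjusted p under 0.05. The slope was above 0 in 75 of the 85 genes (88.2%) and in 51.6% of probes, with a median of 0.15 log2 per unit of score against 0.01. With quantile normalization it was above 0 in 63 of the 85, with a median of 0.05. The genes share the same arrays and vary together, so these signs are not separate observations.

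Of the genes with a positive slope, the 5 of smallest p were Uqcrb, Ndufb7, Uqcr10, Ndufs5 and Cox6b2. Uqcrb had 0.66 log2 per unit (unadjusted p = 0.0022, adjusted p = 0.37), Ndufb7 0.42, Uqcr10 of complex III 0.50, Ndufs5 0.40 and Cox6b2 0.24, all without passing the limma adjustment. The 5 genes of smallest p with a negative slope were Ndufaf6 (-0.33), Sdhd (-0.09), Atp5f1e (-0.06), Cox8b (-0.58) and Cox7c (-0.05), with unadjusted limma p values from 0.34 to 0.71. By complex the median slope was 0.14 in complex I, 0.04 in complex II, 0.20 in complex III, 0.12 in complex IV and 0.19 in ATP synthase. Within slides 1, 2 and 3 the slope of the genes' median, fitted without dose group as a term, was 0.19, -0.01 and 0.14.

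Cyp11a1 alone in place of the score gave another picture. In that limma fit, 481 of 23258 probes (2.07%) had a called slope, 379 of them positive, and among the 85 genes 6 were called (7.06%), all positive. They were Sdha and Sdhb, the catalytic flavoprotein and iron-sulfur subunits of complex II, Atp5f1b and Atp5f1c, the beta and gamma subunits of the F1 motor, and Ndufs1 and Ndufs3, core subunits of complex I. The slopes were 0.59 (SE 0.11, adjusted p = 0.017) for Sdha, 1.07 (SE 0.22, adjusted p = 0.024) for Sdhb, 0.56 (SE 0.11, adjusted p = 0.016) for Atp5f1b, 0.50 (SE 0.12, adjusted p = 0.049) for Atp5f1c, 0.55 (SE 0.10, adjusted p = 0.014) for Ndufs1 and 0.49 (SE 0.11, adjusted p = 0.034) for Ndufs3, in log2 per doubling of the Cyp11a1 signal.

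The number of calls varied with the animals and terms in the fit. Without the 2 animals farthest from the median of Cyp11a1 the same fit called 0 of the 85 genes, without replicate 2 of the lowest dose it called 2, without replicate 1 of the middle dose 3, and with the spike-in set as a block 0. Without slide as a term the fit called 5, beside 1.25% of probes. For the counts before that one the share of probes is not given here, so a fall over the whole array is not told apart. On the score itself the slopes of these 6 genes were 0.04 to 0.22 with unadjusted limma p values from 0.24 to 0.92, and with Star alone 0 of the 85 genes were called, beside 0.0344% of probes (8). Within slides 1, 2 and 3 the slopes were 0.55, 0.54 and 0.61 for Sdha, 1.33, 0.62 and 1.31 for Sdhb, 0.50, 0.39 and 0.49 for Atp5f1b, 0.49, 0.38 and 0.55 for Atp5f1c, 0.44, 0.39 and 0.72 for Ndufs1 and 0.67, 0.38 and 0.49 for Ndufs3. These slopes within slides were fitted without dose group as a term, unlike the called slopes. The 6 genes were picked by their slope on these same arrays with slide as a term, so these signs are not a separate check.

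**Figure D4:**
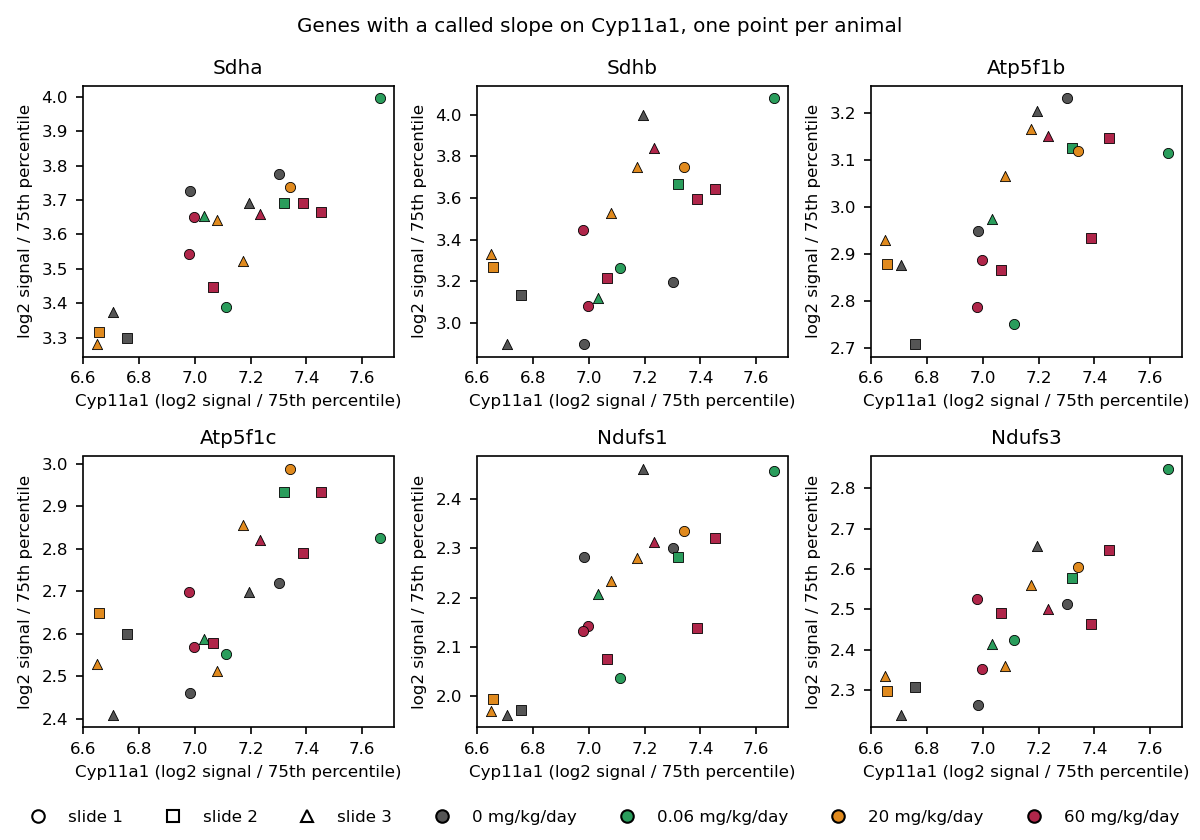
Log2 signal of Sdha, Sdhb, Atp5f1b, Atp5f1c, Ndufs1 and Ndufs3 (vertical axes) against that of Cyp11a1 (horizontal axes), both relative to the array's 75th percentile, with 1 point per animal, symbols for the 3 slides and colours for the 4 doses. The genes were picked for their slope on Cyp11a1 in these arrays, and each has a positive slope on every slide, fitted without dose group. The animal with the highest Cyp11a1, replicate 2 at 0.06 mg/kg/day (7.66), is the highest for Sdha, Sdhb and Ndufs3.

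The 250 bases before the RefSeq start (GRCr8) of the complex II pair are shown since both had a called slope and correlated with each other at r = 0.64 after dose group and slide. Capitals mark NRF1 matches.
Sdha (chr1:30764303-30764552, plus strand): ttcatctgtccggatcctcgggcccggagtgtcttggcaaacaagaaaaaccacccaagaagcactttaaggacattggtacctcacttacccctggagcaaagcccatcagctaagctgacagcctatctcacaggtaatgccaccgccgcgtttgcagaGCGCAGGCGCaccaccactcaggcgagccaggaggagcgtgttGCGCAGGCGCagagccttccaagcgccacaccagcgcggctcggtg
Sdhb (chr5:158547684-158547933, plus strand): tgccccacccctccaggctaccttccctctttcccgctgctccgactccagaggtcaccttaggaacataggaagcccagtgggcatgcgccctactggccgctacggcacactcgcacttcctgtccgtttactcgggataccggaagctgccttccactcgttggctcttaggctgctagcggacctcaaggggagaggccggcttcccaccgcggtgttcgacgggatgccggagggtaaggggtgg

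The Sdha window holds 2 matches of the letters GCGCAGGCGC, 89 to 80 and 46 to 37 bases before the start, and the Sdhb window has no match to NRF1, GABPA, YY1, MEF2 or the estrogen-related receptor letters. Sdhb was 2.90, 3.20, 3.13, 2.90 and 4.00 in control replicates 1 to 5 and 3.26, 4.08, 3.67 and 3.12 in replicates 1, 2, 3 and 5 at 0.06 mg/kg/day. It was 3.75, 3.27, 3.75, 3.53 and 3.33 at 20 mg/kg/day, and its lowest, median and highest values at 60 mg/kg/day were 3.08, 3.52 and 3.84. Its means lay 0.31, 0.30 and 0.25 above the controls with limma p values of 0.19, 0.18 and 0.25 before adjustment.

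The 2 highest animals, control replicate 5 and replicate 2 at 0.06 mg/kg/day, were also the ones in which Akr1c18, the progesterone-degrading enzyme of regressing corpora lutea (listed as Akr1c3), was -4.23 and -2.48, against 5.28 to 7.05 in the 18 others. Lhcgr, the luteinizing hormone receptor, was 1.32 and 2.10 in these 2 and between -3.63 and -0.74 elsewhere. Without them the Sdhb slope on Cyp11a1 was 0.77 (adjusted p = 0.070) and 2 of the 85 genes were called in the limma fit. The share of all probes called there is not given here.

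Sdha was 3.73, 3.77, 3.30, 3.37 and 3.69 in the controls, 3.39, 4.00, 3.69 and 3.65 in replicates 1, 2, 3 and 5 at 0.06 mg/kg/day, and 3.74, 3.32, 3.52, 3.64 and 3.28 at 20 mg/kg/day. In the highest dose group the lowest, median and highest were 3.45, 3.65 and 3.69. The 5 ovaries of low Cyp17a1 had Sdha values of 3.30, 3.39, 3.32, 3.28 and 3.45 and Cyp11a1 values of 6.76, 7.11, 6.66, 6.65 and 7.07, against 6.65 to 7.66 over all animals. The part of either state of the ovary in the slopes was not tested. Sdhc and Sdhd, the membrane anchors, had slopes on Cyp11a1 of -0.01 and -0.05.

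Other genes of mitochondrial metabolism were read in the same Cyp11a1 fit. Citric acid cycle genes with a called slope included Ogdh (0.89 log2), Dld (0.76) and Suclg2 (1.67), chosen after their values were seen. Cyc1, the cytochrome c1 of complex III that the name rule leaves out, was called at 0.52, and Fdxr, the reductase that feeds Cyp11a1, at 0.67. Of 31 measured assembly factors of all complexes, 4 were called, Uqcc1, Atpaf2, Tmem70 and Ecsit, all positive.

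Of 17 glycolysis genes 1 was called (Pgam1), of 12 fat oxidation genes 1 (Etfdh), of 7 carriers and porins 1 (the phosphate carrier Slc25a3) and of 13 regulators 1 (the mitochondrial polymerase Polg), each with a positive slope. Of 68 mitochondrial ribosome genes 3 were called, and of 92 cytosolic ribosome genes 0. The same background of 2.07% of probes applies to each count. In the dose comparisons 0 genes of any of these lists were called, and their median differences at 20 mg/kg/day ran from -0.03 for the regulators to 0.21 for the 3 genes of the steroid electron chain.

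The genes varied together from ovary to ovary. On residuals from dose group, the median Pearson correlation over the 3570 pairs of the 85 genes was 0.33, and it was 0.33 with slide removed too, against 0.01 between these genes and all other named genes. All pairs share the same 20 arrays and their scaling. With quantile normalization in place of the 75th percentile the median was 0.17. By class, with slide removed, it was 0.49 in complex IV, 0.44 in ATP synthase, 0.36 in complex III and 0.34 in complex I, and 0.33 between classes. Complex II and the assembly factors had medians of -0.00 and 0.00. With dose group alone removed, complex IV was at 0.18, below the 0.32 between classes. With quantile normalization the medians were 0.12 in complex I, 0.31 in complex III, 0.22 in complex IV, 0.28 in ATP synthase and 0.17 between classes, so the order of the complexes changed with the processing.

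**Figure D5:**
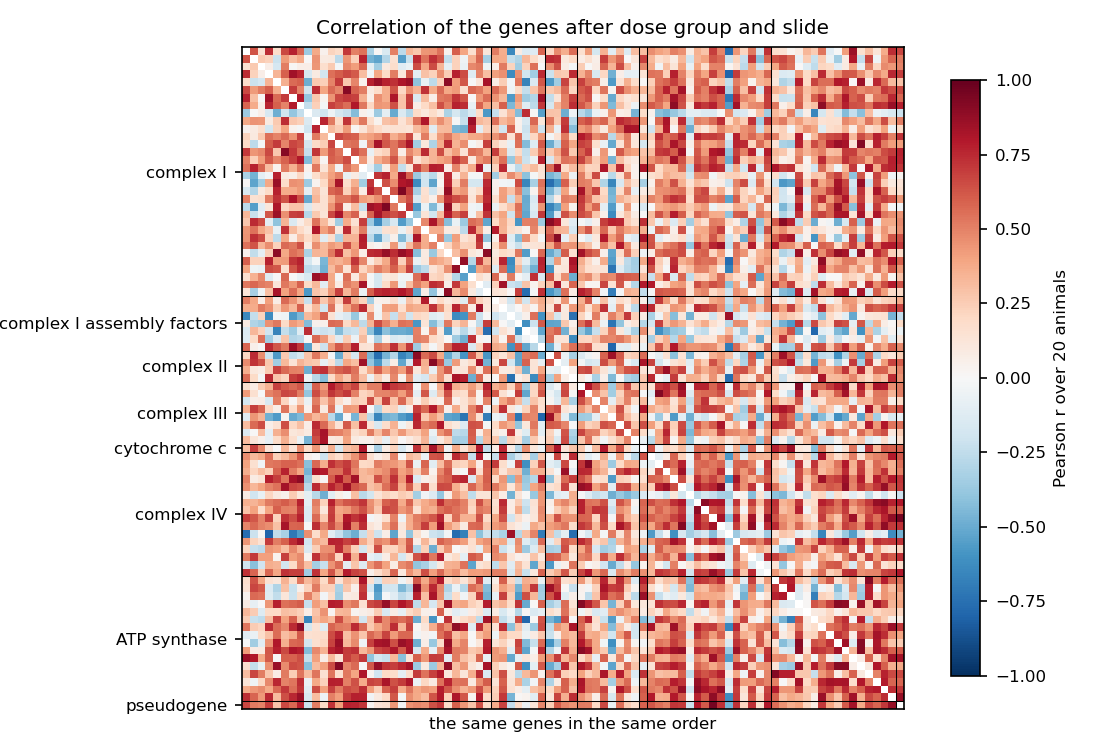
Pearson r over the 20 animals, after removal of dose group and slide, for every pair of the 85 genes, ordered by complex on both axes; red is positive and blue negative. The field is mostly red within and between complexes I, III, IV and ATP synthase (medians 0.34, 0.36, 0.49 and 0.44), and the block of the 7 assembly factors is pale (median 0.00).

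Cox6a1, Atp5mf and Cox6b1 had the highest median correlation with the others (0.56, 0.56 and 0.55), while Cox7a2l, Ndufa6, Ndufaf6, Uqcrc2 and Cox6a2 had medians below 0 (-0.16 to -0.08). The 6 genes called with Cyp11a1 stood lower than most, between 0.13 for Sdha and 0.21 for Atp5f1b. The named genes most like the mean of the 85, on residuals from group and slide over 20 animals, were Aldoart2 (r = 0.92), Phpt1 (0.92), Gcsh (0.91), Polr2l (0.90), Bola3 (0.90), Pgls (0.89), Aldoa (0.89), Mrpl51 (0.89), Dnajc3 (0.87) and Hspd1 (0.86). Slide itself differed in 14 of the 85 genes (16.5%), against 19.0% of probes in the same limma test. Cox6b2, Cox7c, Uqcrq and Cox6c-ps1 were highest on slide 3, and the 10 others, among them Ndufa11, Ndufb7, Cox4i1 and Ndufv1, were lowest there.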

How the data were processed

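RNA of 20 whole ovaries was hybridised to 1-colour Agilent rat arrays, with 100 ng labelled with Cy3 per the labels' protocols. Per the file headers, Feature Extraction 11.5.1.1 gave each spot a processed intensity, linear and already background-corrected, with flags for spots well above background. A deposited table of log2 values from the authors covers these arrays too, and its normalization is not given in the sources used here. Columns of that table correlated with the scanner values at r of 0.946 to 0.991 (deviations from probe means), and it served as an alternative. Replicate 4 at 0.06 mg/kg/day, which the submitters removed as an outlier, was not analysed here.

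Spots of a probe were averaged, and outlier spots were left out. From the log2 processed signal, log2 of the 75th percentile of the array's non-control spots was subtracted. Probes well above background on at least 4 arrays were kept, 23258 in number. Of 30367 probes on the array, 32 without a usable spot were dropped, 18745 had 1 RefSeq symbol (GRCr8 table, matched by accession) and 11590 none. Group means, or group, slide and score, were fitted to all 20 arrays with limma 3.58.1 (R 4.3.3), with Benjamini-Hochberg adjustment over all probes kept. The order contrast weighted the doses -3, -1, 1 and 3. Background correction by normexp (offset 50) used median spot signals in place of the planned mean signals, which were not used here. Both fits were tested on simulated data. Replicates are separate animals.

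The members and lists were chosen with earlier results of these data known. Genes named are the 5 of smallest p per dose, 5 of each sign for the score, the 5 of largest and of smallest SD, fixed isoform pairs, Sdh, core and assembly genes, and the 10 genes most like the mean. Genes called with Cyp11a1, Cox7b, and genes named for a slide difference or a high correlation were named after their values were seen. Of 20 genes with several probes, 5 had a probe of opposite sign at 20 mg/kg/day (Atp5f1d, Ndufa10l1, Ndufaf4, Ndufs4 and Ndufv3).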

Additional observations from a re-analysis of the deposited data

Results flagged for a closer look

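Within the dose groups of 4 to 6 animals, 220 sets of values (55 genes or complex medians in 4 groups) were screened for an animal standing far from the rest, and 11 stood out, where chance gives about 1 in 20. In the controls, Ndufb2 was low in replicate 4 (3.62, the next 3.80), Ndufb5 low in replicate 5 (3.08, the next 3.28) and Sdhb high in replicate 5 (4.00, the next 3.20). At 0.06 mg/kg/day, Cox4i1 was low in replicate 5 (4.97), Cox6b2 high in replicate 5 (2.60), and Ndufaf7 high in replicate 3 (-1.83). Replicate 5 is the animal of this group on slide 3.

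At 20 mg/kg/day, Ndufs4 was high in replicate 3 (3.19, the next 2.93). At 60 mg/kg/day, Cox7c (1.89), Ndufab1 (2.85) and Uqcrq (-1.29) were high in replicate 6, the animal of this group on slide 3, and Ndufaf5 was high in replicate 5 (0.81, the next 0.56).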

How the results depend on the processing

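In the dose comparisons, the trend and the joint test, 0 of the 85 genes were called under every alternative run, and the medians kept their sign except at 60 mg/kg/day and in the trend without control replicate 4. The alternatives to the slope on Cyp11a1 were chosen after seeing the data. The 6 genes called there became 10 with quantile normalization, 0 with the spike-in set as a block, 0 with the replicate number as a block, 0 without the 2 arrays farthest from the median of Cyp11a1, 2 without the 2 arrays of low Akr1c18, and 2 to 7 when each animal was left out in turn. The share of all probes called is not given beside these counts, so they are not read as a result about these genes. On the score, 6 were called when Cyp11a1 alone stood for it and 0 under the other settings. The median pairwise correlation was 0.17 with quantile normalization. Same-numbered animals did not deviate together (median r -0.01 over 27 pairs), and the labels give independent litters, so the replicate numbers name animals only; with that block the Sdhb slope was 1.09 (adjusted p = 0.19 in limma's fit). Some slopes on the score that had not passed changed sign: Cox7c was 0.025 without slide; with Cyp11a1 alone Ndufb7 was -0.049, Ndufs5 -0.15, Ndufaf6 0.51 and Atp5f1e 0.00066; with Star alone Sdhd was 0.16 and Cox8b 0.49. Leaving out single animals, Cox8b ran from -1.10 to 0.71 and Cox7c from -0.089 to 0.0032. The cause was not tested. Precision is limited by the number of animals, and the dim probes of Cox8b and Cox6a2 have the widest intervals.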
